A study of Mus musculus with 16 samples.

Results

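Satellite glia and Schwann cell genes were followed in mouse dorsal root ganglia after a sciatic nerve crush. The 30 genes were chosen by name from the 48795 genes of the count table. They are 13 genes of satellite cells and of glia in general, and 17 genes of the myelin sheath, its enzymes and its regulators. All 30 were found by symbol, and all 30 passed the filter on low counts. RNA came from ganglia L4 to L6, dissociated with a Percoll step per the labels (Percoll is a density medium). Each mouse had a crush of 1 sciatic nerve and gave an injured and a naive sample. The 4 groups of 4 libraries were injured ganglia 24 h after the crush, naive ganglia at 24 h, injured ganglia at 72 h and naive ganglia at 72 h. Neither strain, sex nor age is given in the labels used here, and a naive ganglion came from an animal that itself had a crush.

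Each cell body of a sensory neuron in the ganglion is wrapped by satellite glial cells, which take up transmitter and buffer potassium. Schwann cells sit along the axons: myelinating ones wrap single large axons, and non-myelinating ones hold bundles of thin axons. In an injured nerve, Schwann cells below the injury are known to switch off myelin genes, while in the ganglion, far from the injury, satellite cells are known to react with a rise of the intermediate filament protein GFAP. These are bulk samples of dissociated ganglia, so fewer cells of a type and less RNA per cell cannot be told apart. Nor can a loss of cells or myelin in the dissociation and Percoll step, which may vary between libraries and was not measured here. Levels are those of the prepared samples, not of intact ganglia.

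The 3 members with the largest rises were Gfap, Gldn and Glul. Their promoters are shown because these rises were the largest. Each line is the 150 bases before the first listed RefSeq transcription start of the gene in build GRCm38.p6, read 5′ to 3′ along the gene. Gldn lies at chr9:54286336-54286485 on the plus strand, Gfap at chr11:102897201-102897350 on the minus strand and Glul at chr1:153899779-153899928 on the plus strand. Capitals mark the only match, in these windows, to the motifs searched.
Gldn: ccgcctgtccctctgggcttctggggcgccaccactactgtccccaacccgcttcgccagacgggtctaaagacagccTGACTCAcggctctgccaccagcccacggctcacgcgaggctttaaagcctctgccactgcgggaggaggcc
Gfap: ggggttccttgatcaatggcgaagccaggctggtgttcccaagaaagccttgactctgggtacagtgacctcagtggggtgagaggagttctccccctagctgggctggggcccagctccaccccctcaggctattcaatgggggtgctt
Glul: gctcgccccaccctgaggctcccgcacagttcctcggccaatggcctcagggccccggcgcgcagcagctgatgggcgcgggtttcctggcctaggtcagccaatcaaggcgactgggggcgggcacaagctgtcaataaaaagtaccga
The motifs were the AP-1 letters TGANTCA, the STAT letters TTCNNNGAA, the SOX letters ACAAAG and AACAAT, and the EGR letters GCGNGGGCG, each on both strands. The capitals in Gldn are an AP-1 match. The 23 members with a promoter in the table had 35 promoters. Over the 250 bases before the start, TGANTCA was in 6.75% of 32851 mouse promoters and in 1 of the 35, that of Gldn. TTCNNNGAA was in 7.02% of promoters and in 2 of the 35, both of Mag. ACAAAG was in 16.5% of promoters and in 3 of the 35, of Cnp and Mag. GCGNGGGCG was in 4.70% of promoters and in 2 of the 35, of Ptprz1 and Scn7a. AACAAT was in 9.42% of promoters and in 0 of the 35. The matches are letters in a window and were not tested as sites.

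Levels differed by more than 3 orders of magnitude between the genes. Levels of different genes are compared here as CPM (counts per 1000000 counts of a library, with library sizes scaled by TMM factors) per kilobase of GENCODE exon, averaged over 16 libraries. S100b, a calcium-binding protein of glia that some sensory neurons also make, was highest at 525 CPM per kb. Pmp22, a membrane protein of compact myelin, followed at 244 and Glul, glutamine synthetase of satellite cells, at 216. The fatty acid-binding protein gene Fabp7 stood at 101, the sodium channel-like gene Scn7a at 94.8 and the adhesion molecule gene L1cam, which neurons also express, at 80.5. At the low end were Mag, a myelin adhesion protein, at 0.340 CPM per kb, the lipid hydroxylase gene Fa2h at 0.293, Gfap at 0.292 and the promyelinating transcription factor gene Pou3f1 at 0.196. Satellite members summed to 3008 to 3565 CPM per library and myelin members to 720.4 to 1086 CPM, beside 9429 to 11742 CPM for 10 general neuronal genes. These sums are not per kb and rest on few genes, so they do not measure amounts of cell types. S100b, Glul, Scn7a and L1cam averaged 779, 717, 695 and 591 CPM over all libraries, and Pmp22 averaged 574 CPM. The oligodendrocyte genes Mog and Opalin had 0 counts in all 16 libraries, and Mobp and Ermn had 27 and 19 counts in total. Of the 6 central glia genes, the water channel gene Aqp4 and the glutamate transporter gene Slc1a2 passed the filter: Slc1a2 rose by 1.11 (SE 0.235, edgeR adjusted p = 0.00133) at 24 h and Aqp4 fell by 0.48 (SE 0.135, edgeR adjusted p = 0.00843) at 72 h.

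**Figure D1:**
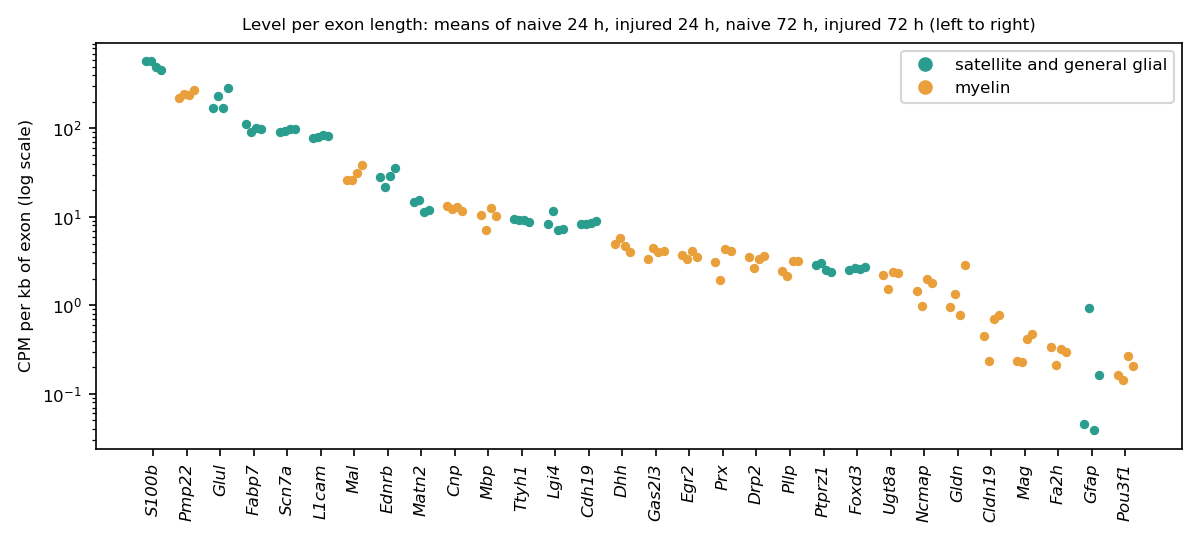
Level of each of the 30 genes in CPM per kb of exon on a log axis. Each gene has 4 points, the means of naive 24 h, injured 24 h, naive 72 h and injured 72 h (n = 4 libraries each), in green for satellite and general glial genes and in orange for myelin genes. S100b was highest and Pou3f1 lowest, and Gfap moved most between groups.

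At 24 h the members moved in both directions. By edgeR's quasi-likelihood test with Benjamini-Hochberg adjustment over all genes at 0.05, 7 of the 30 changed: 4 rose (Gfap, Glul, Lgi4 and Gas2l3) and 3 fell (Ednrb, Mbp and Drp2). That is 23.3% of the members, beside 19.0% of all 19151 genes tested (10.7% higher and 8.31% lower). When libraries were scaled by total count alone, the share of higher genes among all calls went from 56.3% to 45.3%, and the same number of members, 7, was called. The median log2 fold change was 0.05 over 13 satellite members and −0.19 over 17 myelin members, beside −0.01 over all genes tested.

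Gfap, the intermediate filament gene by which reactive glia are known, went from nearly absent to a low level. In naive ganglia at 24 h the 4 libraries had 9, 23, 0 and 7 counts, and in injured ganglia 100, 219, 94 and 192 counts. The 0 was among 41270423 counts, which allows up to 0.0727 CPM by counting error. In CPM, the mean went from 0.190 ± 0.167 to 3.89 ± 1.21 (SD, n = 4 libraries), and each injured library was above each naive one. The log2 fold change was 4.28 (SE 0.57, edgeR adjusted p = 5.78e-06). Gfap (ENSMUSG00000020932) lies on chromosome 11, 102887336 to 102900912 of GRCm38.

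Glul, which turns glutamate taken up by satellite cells into glutamine, rose from a high level. Naive libraries at 24 h had 595, 552, 545 and 565 CPM, and injured libraries 733, 771, 802 and 803 CPM, with no overlap. The log2 fold change was 0.46 (SE 0.05, edgeR adjusted p = 3.96e-07). Glul (ENSMUSG00000026473) lies on chromosome 1, 153899944 to 153909723. Lgi4, a secreted ligand that Schwann cells need to form myelin, had 42.9, 32.9, 31.5 and 43.2 CPM in naive and 65.4, 41.4, 52.7 and 53.9 CPM in injured ganglia. The groups overlapped in 1 injured library, and the log2 fold change was 0.50 (SE 0.12, edgeR adjusted p = 0.00562). Lgi4 shares exon bases with Fxyd3 on the opposite strand, and the strand setting of the counting is not given; Fxyd3 had 948 counts in all libraries against 26728 for Lgi4.

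Ednrb, the endothelin B receptor of satellite cells, fell at 24 h. Naive libraries had 110 to 136 CPM and injured ones 85.4 to 104 CPM, with no overlap. It fell by 0.35 on the log2 scale (SE 0.10, edgeR adjusted p = 0.0121). Without naive 24 h replicate 4 the log2 value was −0.28 and the adjusted p 0.0558, which was the highest over the 22 alternatives (lowest 2.51e-07). Fabp7 had 131, 107, 174 and 153 CPM in naive and 87.8, 97.2, 141 and 124 CPM in injured libraries, a log2 value of −0.33 (SE 0.15) that missed the threshold (edgeR adjusted p = 0.155) and was past it with a replicate block (adjusted p = 0.00349). The other 8 satellite members had log2 values at 24 h near 0: Cdh19, S100b, Ptprz1, L1cam, Foxd3, Ttyh1, Matn2 and Scn7a, none of them past the threshold by edgeR.

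Gas2l3, which links actin filaments to microtubules, was the 1 myelin-list gene that rose at 24 h. It had 25.3, 21.1, 24.9 and 21.9 CPM in naive and 28.9, 30.6, 33.7 and 31.6 CPM in injured libraries, with no overlap, and a log2 fold change of 0.42 (SE 0.09, edgeR adjusted p = 0.00108). Mbp, a main protein of compact myelin, was lower, with 93.5, 61.4, 73.0 and 124 CPM in naive and 62.6, 48.5, 76.4 and 54.4 CPM in injured libraries. The groups overlapped. Mbp fell by 0.54 on the log2 scale (SE 0.16, edgeR adjusted p = 0.0193). Drp2, which with periaxin ties myelin to the basal lamina, fell by 0.42 (SE 0.14, edgeR adjusted p = 0.0347), from 25.3 to 38.2 CPM in naive down to 19.0 to 28.9 CPM in injured libraries.

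Both calls depended on single libraries. The Mbp call was lost when naive 24 h replicate 4 (log2 value −0.33), injured 24 h replicate 2 (−0.46) or injured 24 h replicate 4 (−0.50) was left out, and its adjusted p ranged from 1.27e-14 to 0.121 over 22 alternatives. The Drp2 call was lost when naive 24 h replicate 1 (−0.29), naive 24 h replicate 4 (−0.41), injured 24 h replicate 2 (−0.35) or injured 24 h replicate 4 (−0.35) was left out, and in a fit of the 2 groups alone (−0.43), with a range of 5e-05 to 0.155. Cldn19, the claudin of peripheral myelin, had the lowest value of the list, −0.95 (SE 0.36), with 1.57 to 2.53 CPM in naive and 0.592 to 1.73 CPM in injured libraries, and missed the threshold (edgeR adjusted p = 0.0698); DESeq2 gave 0.0422 and the replicate block 0.0366, in a range of 0.0127 to 0.199. Cldn19 was past the threshold, too, when injured 72 h replicate 2 (−0.95) or injured 24 h replicate 3 (−1.33) was left out. Ugt8a stood at −0.51 (SE 0.24, edgeR adjusted p = 0.158) and Pmp22 at 0.14 (SE 0.07, edgeR adjusted p = 0.141), and Pmp22 was past the threshold without naive 24 h replicate 4 (0.23, adjusted p = 0.00844, in a range of 0.00844 to 0.448). Of the 17 myelin members, 12 had a log2 value below 0 at 24 h, where the median over all genes tested was −0.01. The highest naive 24 h library was replicate 1 in 8 members and replicate 4 in 9, and injured 24 h replicate 2 was lowest in 11. The 12 values share these libraries and are not separate results.

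**Figure D2:**
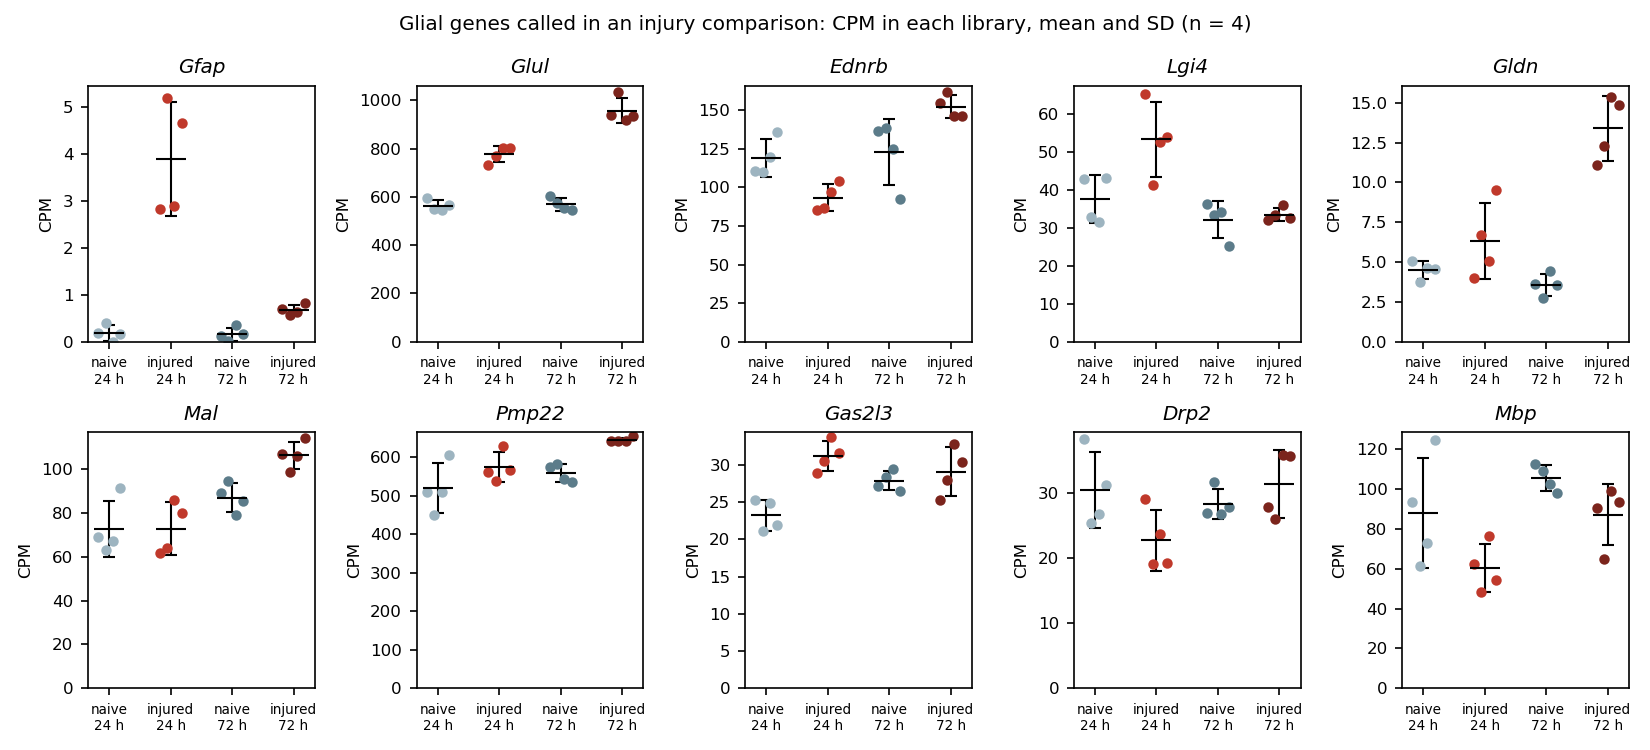
CPM of the 10 members called at 24 h or at 72 h, on linear axes from 0. Points are libraries, and bars are the mean and SD of the 4 libraries of a group. Gfap was highest in injured ganglia at 24 h (mean 3.89 CPM) and Gldn in injured ganglia at 72 h (mean 13.4 CPM), while the groups of Mbp and Drp2 overlapped.

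At 72 h, 6 of the 30 members rose by edgeR: Gldn, Glul, Gfap, Ednrb, Pmp22 and Mal. The share of all genes called was 27.8% (14.4% higher and 13.5% lower). No member fell by edgeR or DESeq2, and these 6 were also the members with an unadjusted p under 0.05. The median log2 fold change was 0.04 over satellite members and −0.04 over myelin members, beside −0.01 over all genes.

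Gldn, gliomedin, which Schwann cells place at nodes of Ranvier to gather sodium channels, rose most among the myelin-list genes. Naive libraries at 72 h had 3.64, 2.75, 4.43 and 3.54 CPM and injured ones 11.1, 12.3, 15.3 and 14.8 CPM. The groups were far apart, with means of 3.59 ± 0.684 and 13.4 ± 2.02 CPM (SD, n = 4). The log2 fold change was 1.90 (SE 0.21, edgeR adjusted p = 1.51e-07). At 24 h, naive libraries had 3.76 to 5.05 CPM and injured ones 3.98 to 9.53 CPM, a log2 value of 0.50 (SE 0.20) that missed the threshold (edgeR adjusted p = 0.0956). Without injured 24 h replicate 1 it was 0.66 and past the threshold (adjusted p = 0.0146, in a range of 0.0146 to 0.476). Gldn (ENSMUSG00000046167) lies on chromosome 9, 54286486 to 54341786.

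Glul stood at 604, 573.5, 553 and 545 CPM in naive and at 941, 1034, 917.5 and 935 CPM in injured libraries at 72 h. The log2 fold change was 0.75 (SE 0.05, edgeR adjusted p = 7.44e-11). Gfap had 5, 1, 14 and 9 counts in naive and 27, 28, 25 and 39 counts in injured libraries, a log2 fold change of 2.08 (SE 0.58, edgeR adjusted p = 0.00867). Injured ganglia were thus above naive in every library of both genes, and Gfap stood at 0.685 ± 0.104 CPM (SD, n = 4) where injured ganglia at 24 h had 3.89 CPM.

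Ednrb was above naive at 72 h, with 136, 138, 124.5 and 92.1 CPM in naive and 154.5, 162, 146 and 146 CPM in injured libraries. The log2 fold change was 0.31 (SE 0.10, edgeR adjusted p = 0.0181). It was not called without injured 72 h replicate 2 (0.28) or without naive 72 h replicate 4 (0.19), with adjusted p from 3.44e-05 to 0.0865 over the alternatives. Naive 72 h replicate 4 was also the lowest of its group in 10 of the 13 satellite members. That library had the highest sum of the 6 neutrophil markers, 403 CPM, where naive 72 h replicates 1, 2 and 3 had 105, 122 and 272 CPM. The part of this library's makeup in the Ednrb result was not tested.

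The myelin membrane genes Pmp22 and Mal rose by little. Pmp22 had 574, 581, 544 and 534 CPM in naive and 642, 641, 642 and 653 CPM in injured libraries at 72 h, and its log2 fold change was 0.21 (SE 0.07, edgeR adjusted p = 0.0211). Mal, a raft proteolipid of myelin, had 88.8, 94.5, 78.8 and 85.2 CPM in naive and 107, 98.5, 106 and 114 CPM in injured libraries, a log2 fold change of 0.29 (SE 0.10, edgeR adjusted p = 0.0397). Neither pair of groups overlapped. Both calls were lost when libraries were scaled by total count (log2 values 0.18 and 0.26) and without injured 72 h replicate 4, naive 72 h replicate 3 or naive 72 h replicate 4 (0.18 to 0.20 for Pmp22 and 0.24 to 0.28 for Mal). For Mal the same held when naive 72 h replicate 1 (0.30), injured 72 h replicate 1 (0.29) or injured 72 h replicate 3 (0.29) was left out. Adjusted p ranged from 0.00111 to 0.0707 for Pmp22 and from 0.000429 to 0.128 for Mal.

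The other myelin members did not pass the test at 72 h. Mbp had 97.8 to 112 CPM in naive and 65.1 to 99.1 CPM in injured libraries, and Drp2 26.8 to 31.6 and 26.002 to 35.8 CPM. Egr2, the master transcription factor of myelination, had 8.55 to 16.9 CPM in naive and 7.13 to 19.0 CPM in injured ganglia at 24 h, and 11.6 to 15.9 and 8.61 to 15.4 CPM at 72 h. Its groups overlapped at both times. Dhh, the hedgehog ligand of Schwann cells, had 19.0 to 27.0 and 18.7 to 29.3 CPM at 24 h and 16.8 to 24.3 and 15.9 to 18.7 CPM at 72 h. Dhh shares exon bases with Rhebl1 on its own strand, so some of its reads may belong to that gene.

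**Figure D3:**
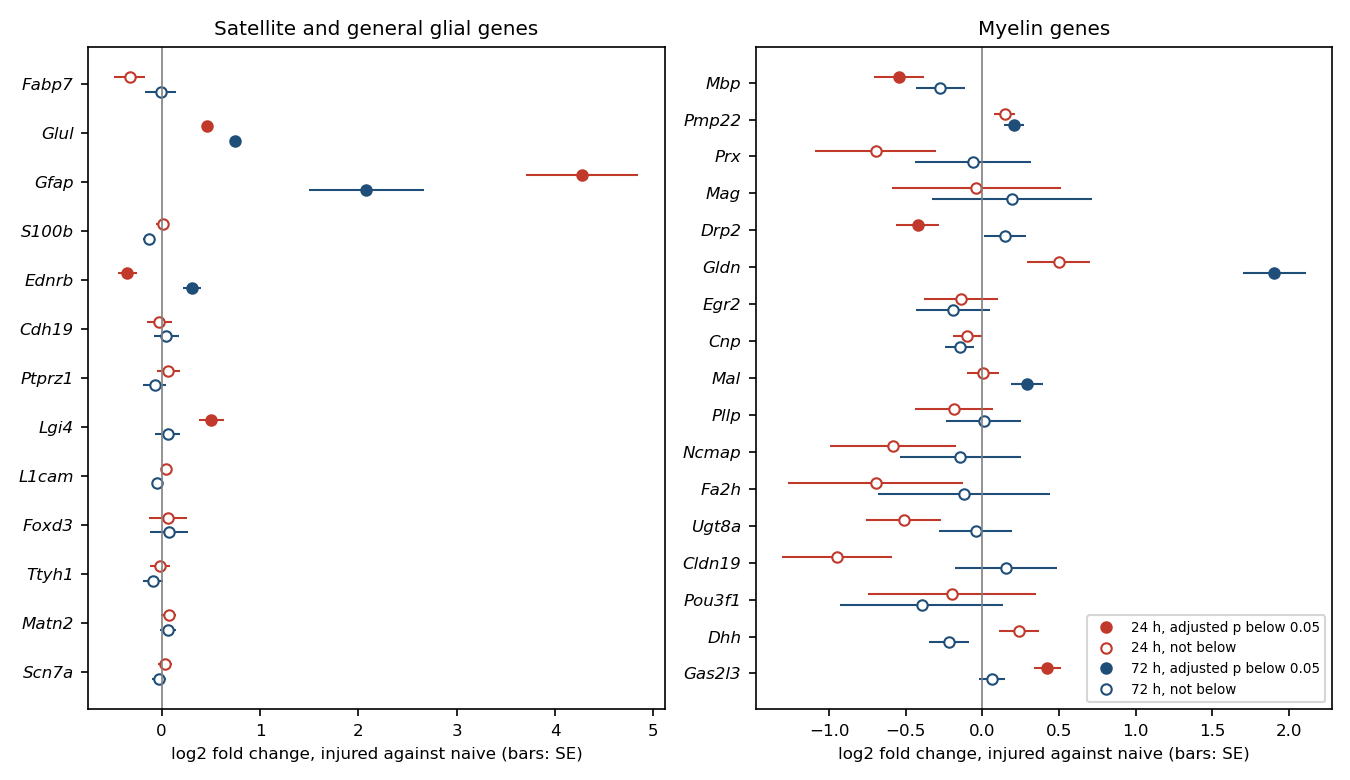
Log2 fold change of injured against naive ganglia for each member at 24 h (red) and at 72 h (blue), with SE bars, from the fit of all 16 libraries. Filled points had an edgeR adjusted p below 0.05. Gfap and Glul were to the right of 0 at both times, Ednrb went from −0.35 to 0.31 and Gldn from 0.50 to 1.90.

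The responses at 24 h and 72 h differed in 3 members. The difference is the 72 h log2 fold change minus the 24 h one, and 6.30% of all genes passed this test (2.86% higher and 3.44% lower), beside 3 of the 30 members. Ednrb differed by 0.66 (SE 0.14, edgeR adjusted p = 0.00398), with a fall at 24 h and a rise at 72 h. Gldn differed by 1.41 (SE 0.29, edgeR adjusted p = 0.0035) and Glul by 0.29 (SE 0.07, edgeR adjusted p = 0.0162). The Glul difference missed the threshold without injured 72 h replicate 2 (0.25, adjusted p = 0.0537, in a range of 0.002 to 0.0537).

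Gfap, with its lower level at 72 h, differed by −2.20 (SE 0.81), which missed the threshold (edgeR adjusted p = 0.126). It was past it by DESeq2 (adjusted p = 0.0267) and without naive 24 h replicate 2 (−2.90, adjusted p = 0.0406), in a range of 0.0171 to 0.397. Lgi4 differed by −0.44 (SE 0.18, edgeR adjusted p = 0.164) and Drp2 by 0.57 (SE 0.20, edgeR adjusted p = 0.0939); with a replicate block, adjusted p was 0.0356 and 0.0213, and without the filter on low counts 0.0045 and 0.000653. The Drp2 difference was also past the threshold by DESeq2 (adjusted p = 0.0363) and without injured 24 h replicate 1 (0.71, adjusted p = 0.0193), in a range of 0.000653 to 0.204, and the range for Lgi4 was 0.0045 to 0.305. Dhh differed by −0.46 (SE 0.19, edgeR adjusted p = 0.171), and with a replicate block adjusted p was 0.0426. Gas2l3 differed by −0.36 (SE 0.12, edgeR adjusted p = 0.0926) and was past the threshold without injured 72 h replicate 3 (−0.42, adjusted p = 0.0481, in a range of 0.0481 to 0.18). Cldn19 differed by 1.10 (SE 0.49, edgeR adjusted p = 0.226).

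The naive ganglia of the 2 times differed in 1 member. Matn2, a matrix adaptor protein, had 102, 94.4, 84.9 and 84.2 CPM in naive ganglia at 24 h and 78.0, 74.6, 70.4 and 62.2 CPM at 72 h, lower by 0.36 on the log2 scale (log2 value −0.36, SE 0.08, edgeR adjusted p = 0.0168), where 2.34% of all genes passed (1.61% higher and 0.731% lower). Of 6 endothelial markers, 4 were higher in naive ganglia at 72 h, of 6 mural cell markers, 3, and of 6 neutrophil markers, 1. Every marker of these lists had a log2 value above 0 between the naive groups. Their part in the Matn2 result was not tested. Matn2 was not called without naive 24 h replicate 1 (−0.30) or without naive 72 h replicate 3 (−0.35), with adjusted p from 2.19e-05 to 0.0553. S100b had 819 to 937 CPM in naive ganglia at 24 h and 691 to 804 CPM at 72 h, a log2 value of −0.22 (SE 0.06) that missed the threshold (edgeR adjusted p = 0.0689, DESeq2 0.0308, in a range of 0.0124 to 0.204). Gas2l3 and Mal had log2 values of 0.26 (SE 0.09) and 0.26 (SE 0.10) between the naive groups and missed the threshold (edgeR adjusted p = 0.113 and 0.196); without naive 24 h replicate 4, Mal was at 0.39 (adjusted p = 0.0384, in a range of 0.00661 to 0.418).

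Within groups, many myelin genes varied between libraries. The within-group SD of log2 CPM had a median of 0.43 over myelin members (0.10 to 1.06) and of 0.17 over satellite members (0.07 to 0.91). Count depth moved with these values: Fa2h, Mag and Gfap, with 605, 958 and 792 counts in all, had SDs of 1.06, 1.00 and 0.91, and Glul, with 495468 counts, had the lowest SD. The part of depth in the spread was not tested. Prx and Gas2l3, with 13159 and 19266 counts, had SDs of 0.78 and 0.12. Prx, periaxin, a scaffold made by myelinating Schwann cells, had 28.0, 9.41, 7.08 and 24.9 CPM in naive and 16.2, 4.12, 15.995 and 6.96 CPM in injured libraries at 24 h. At 72 h it had 28.1, 21.5, 21.6 and 24.8 CPM in naive and 19.5, 11.2, 31.1 and 30.3 CPM in injured libraries. Ncmap, a protein of non-compact myelin, had 5.29, 1.89, 1.52 and 4.27 CPM in naive and 2.76, 1.28, 3.48 and 1.21 CPM in injured libraries at 24 h.

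The same libraries were low for many of these genes. Naive 24 h replicate 2 was the lowest of its group in 12 of 17 myelin members, injured 24 h replicate 2 in 11 and injured 72 h replicate 2 in 13. Injured 24 h replicate 3 was the highest of its group in 13 of 17, and injured 72 h replicate 3 in 12. In injured 24 h replicate 2, Fa2h had 1 count and Mag had 5 counts. Pllp, plasmolipin, which like Mal belongs to the MARVEL family, had 5.30, 2.39, 6.69 and 3.42 CPM in the injured 24 h libraries, and Ugt8a, which makes galactolipids of myelin, had 7.19, 4.62, 9.31 and 6.72 CPM. Cnp, an enzyme of myelin, stood at 39.6 to 52.5 CPM there. It shares 154 of its 3639 exon bases with Dnajc7 on the opposite strand, a gene with 144172 counts, so its value is uncertain. Pllp shares 1128 of its 2083 exon bases with Gm45767 on the opposite strand, which had 137 counts against 3943 for Pllp. The part of this variation between libraries in the falls of Mbp and Drp2 at 24 h was not tested.

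**Figure D4:**
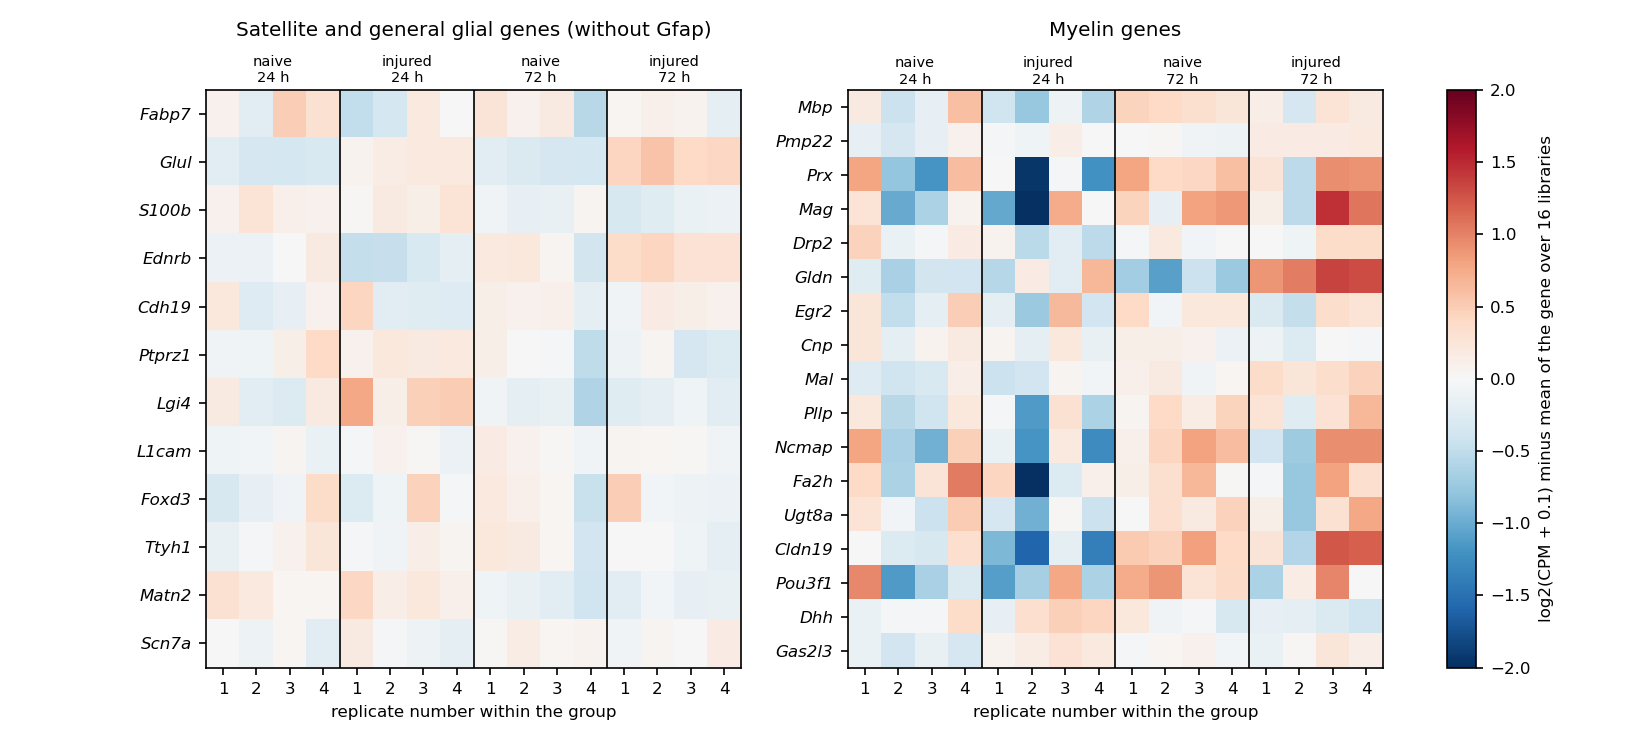
Level of each member by library, as log2(CPM + 0.1) minus the mean of the gene over the 16 libraries (colour limit 2 on the log2 scale), for 12 satellite and general glial genes without Gfap and for 17 myelin genes. Columns are replicates within a group. Injured 24 h replicate 2 is low for Prx, Mag, Ncmap, Fa2h and Cldn19, while Pmp22 and Cnp stay near 0, and Gldn is high in the injured libraries at 72 h.

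Other glial genes were listed with earlier results of these data known. The median log2 fold change over 13 further satellite genes was −0.01 at 24 h and −0.15 at 72 h. Among them the glycolytic enzyme gene Aldoc fell by 0.35 (SE 0.06, edgeR adjusted p = 0.000186) and the Wnt antagonist gene Sfrp5 fell by 0.49 (SE 0.12, edgeR adjusted p = 0.00388) at 72 h, and these 2 were the ones called at that time. Over 13 further myelin genes the medians were −0.18 and −0.01, and 2 fell at each time. The phosphatase gene Dusp15 fell by 0.65 (SE 0.11) at 24 h and by 0.81 (SE 0.11) at 72 h, and the tetraspanin gene Tspan2 fell by 0.30 (SE 0.08) and by 0.61 (SE 0.08). Of 12 tested genes of repair Schwann cells (15 listed), 4 rose and 1 fell at 24 h (median −0.05), and 5 rose and 2 fell at 72 h (median 0.40). Jun, a transcription factor of the repair state, rose by 0.71 (SE 0.09) and by 0.60 (SE 0.09), and the neurotrophin gene Bdnf by 1.76 (SE 0.08) and by 0.93 (SE 0.08); axotomized sensory neurons are also known to raise both. Shh, a hedgehog ligand, rose by 0.84 (SE 0.13) at 24 h, and the N-cadherin gene Cdh2 rose by 0.55 (SE 0.06) at 72 h. The genes of this list that fell were Id2 and Ngfr. Id2 fell by 0.48 (SE 0.11) at 24 h and by 0.62 (SE 0.11) at 72 h, and Ngfr fell by 0.25 (SE 0.07) at 72 h. Olig1, Pax3 and Artn did not pass the filter.

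Markers of other cells moved beside these results. Of 10 macrophage markers, 7 rose at 72 h by edgeR, and their summed level was 60.0 to 79.7 CPM in injured and 20.3 to 45.3 CPM in naive libraries, with 22.6 to 30.6 and 17.1 to 35.2 CPM at 24 h. Of 10 neuronal genes, 2 rose and 4 fell at 72 h, with sums of 11018 to 11742 and 9477 to 10256 CPM, and at 24 h 1 rose and 3 fell. Of 6 neutrophil markers, 6 were lower in injured than in naive ganglia at 72 h by edgeR. Their sums were 38.2 to 145 CPM in injured and 105 to 403 CPM in naive libraries at 72 h. At 24 h the sums were 53.5 to 94.5 CPM in injured and 48.1 to 148 CPM in naive libraries. Of 5 red cell genes, all 5 had a log2 value below 0 at 72 h (−0.97 to −0.77), and none was called by edgeR. Both lists had their highest sums in naive 72 h replicates 3 and 4. There the neutrophil sums were 272 and 403 CPM and the red cell sums 163 and 184 CPM. None of these lists had a member at 0 over all libraries. Their part in the glial results was not tested. Gene counts per library ranged from 32758978 to 56484541.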

How the data were processed

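RNA-seq of 16 libraries was analysed from the gene table, which holds whole read counts per Ensembl gene as the authors deposited them, with no scaling. Per the submitters' processing notes, the tools included STAR, HTSeq and bcl2fastq 2.17, and the builds named are mm10 and GRCm38; strand setting, annotation release and multi-mapping rule are not given in the sources used here. The 72 h columns carry no time and were assigned by elimination. The repeat table was not used here.

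Counts were fitted with edgeR 4.0.16 in R 4.3.3 (TMM, filterByExpr with minimum count 10 and minimum total 15, quasi-likelihood F tests, group as the only term, all 16 libraries), and p-values were adjusted by Benjamini-Hochberg over 19151 genes. SE is the absolute log2 fold change over the square root of F. The code was tested on simulated data. Symbols matched 48349 of 48795 genes; exon lengths and coordinates are from GENCODE M21, sequences from RefSeq (GRCm38.p6). Libraries within groups differed by at least 9.79 chi-square per degree of freedom. The upper limit given for Gfap covers counting error only, while SE includes the spread between libraries. Members and lists (further satellite, further myelin, repair Schwann cell, central glia, neuronal, macrophage, neutrophil, red cell, endothelial and mural genes) were chosen with earlier results of these data known. Every member is accounted for, with fold changes where the unadjusted p was under 0.05; from the further satellite, myelin and repair lists at most the 3 smallest p-values per injury comparison were named, and from marker lists at most the 3 highest levels. Mog, Opalin, Mobp, Ermn, Olig1, Pax3, Artn, Id2 and Ngfr were named after their values were seen. DESeq2 1.42.0, other scalings, no filter, 2 groups alone, a replicate block and each library left out were tried.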

Additional observations from a re-analysis of the deposited data

Results flagged for a closer look

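In 120 groups of 4 libraries (30 members in 4 groups), 7 had a library far from the other 3 by Dixon's 95% limit, where chance flags about 1 in 20 groups. Cdh19, a glial cadherin, stood at 48.6 CPM in injured 24 h replicate 1 (others 30.1 to 31.3) and at 31.5 CPM in naive 72 h replicate 4 (others 38.3 to 39.4). Cnp stood at 42.0 CPM in naive 72 h replicate 4 (others 48.2 to 49.2) and S100b at 937 CPM in naive 24 h replicate 2 (others 819 to 832). Foxd3 stood at 8.35 CPM in injured 72 h replicate 1 (others 5.43 to 5.68), Pmp22 at 653 CPM in injured 72 h replicate 4 (others 641 to 642) and Pou3f1 at 1.20 CPM in injured 24 h replicate 3 (others 0.254 to 0.388).

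The injury response differed between 24 h and 72 h, by the tested difference of log2 fold changes, in Glul (0.29), Ednrb (0.66) and Gldn (1.41).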

How the results depend on the processing

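Of 31 fold changes given with an unadjusted p under 0.05, none reversed in 669 values under the alternatives: 614 kept their side of the threshold, 25 lost the call and 30 gained it. Without a filter on low counts, the members called were 12 at 24 h (7 as reported), 9 for the difference of responses (3 as reported) and 5 between naive groups (1 as reported), and the cause was not tested. DESeq2 called 5 for the difference and 2 between naive groups. With a replicate block, 6 were called for the difference of responses. Leaving out each library gave 5 to 9 members at 24 h, 3 to 6 at 72 h, 2 to 5 for the difference and 0 to 2 between naive groups. The labels do not say which libraries share an animal, so the main fit took no pairs, and its p-values leave out any pairing. Deviations from group means correlated by 0.047 to 0.101 in 8 same-numbered pairs and by −0.109 to 0.077 in pairs of different number. By these correlations, 7 of 8 injured and 8 of 8 naive libraries matched best with their own number. The block was nested in time, so it was not run between the naive groups. Of all genes, 448 differed between naive groups, 948 by DESeq2 and 1168 without the filter. At 24 h, 3641 of 19151 genes were called as reported and 3805 of 30941 without the filter. For the difference, 1207 of 19151 genes were called as reported, 1562 by DESeq2 and 1692 with a replicate block. Without the filter the difference was called in 1562 of 30941 genes. Genes with few counts, such as Gfap, Mag, Fa2h and Pou3f1, had the largest errors.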
